A study of Mus musculus with 19 samples.

Results

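The RNA levels of 39 genes that encode clotting and complement proteins of the liver were described across 10 mouse liver tumours, numbered 04 to 13. The genes were taken as a list of names with no cut on a measured value, but the list was chosen with earlier results of these data known. Of the 39, 38 were matched to the deposited table of 39179 genes, 37 passed the filter on low counts and 1, C9, was below it and is given by its values alone. Klkb1, which encodes prekallikrein of the contact system, was not matched and is not analysed here. The tumours were taken from male mice that carried 1 Ctnnb1tm1Mmt allele (HET), whose recombination yields a stabilised beta-catenin, and the human MYC transgene Gt(ROSA)26Sortm1(MYC)Djmy (HOM). Cre was delivered by AAV8.TBG.PI.Cre.rBG at 640000000 genome copies per mouse, where the TBG promoter limits Cre to hepatocytes, and the virus was given to young adult animals at a low dose meant to start tumours from single cells. The series also holds 3 tumours, 3 control livers and 3 high AAV control livers that are not analysed here, because their columns could not be told from one another by name. No level below is therefore set against non-tumour liver.

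Clotting factors circulate as inactive precursors that cut and activate one another until thrombin converts fibrinogen to fibrin, and antithrombin, heparin cofactor II and protein C hold the cascade in check. Plasmin, made from plasminogen, dissolves fibrin. Complement works by a similar chain of proteases, started by C1, by lectins or by spontaneous turnover of C3, and ends in a pore built from C5 to C9. Hepatocytes make most of these proteins, and some of them, fibrinogen above all, belong to the acute phase proteins whose transcription rises with interleukin-6 and related cytokines through STAT3 and C/EBP factors.

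The 10 libraries held 11687034 to 36964427 counts over genes, with a median of 16664597. Levels are given as CPM, the counts of a gene per 1000000 counts after TMM scaling, and a difference on the log2 scale uses log2 CPM with a prior count of 2. At these depths 3 counts correspond to 0.0812 to 0.257 counts per 1000000 before TMM scaling, a floor that covers counting error only. All 10 of the 10 hepatocyte markers passed the filter, with a summed level of 37853 to 52934 CPM, which shows liver tissue but cannot tell tumour from non-tumour liver. The column names carry a tag with 5 values, shared by tumours 05 and 06, by 07 and 08, by 09 and 10 and by 11 to 13, with tumour 04 alone. What the tag means is not given in the labels. Tumours with a common tag may come from 1 animal, in which case the p-values below treat related tumours as independent. In whole tumour RNA, fewer cells of a type and less RNA per cell cannot be told apart.

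The clotting and complement genes were expressed at high levels and varied between tumours somewhat more than other genes did. Per kb of exon the highest median levels belonged to C3 at 2057 CPM per kb, Fga at 664, Vtn at 630, Fgg at 561 and Fgb at 476. C3, the protein on which all complement pathways converge, ranged from 6663 CPM in tumour 07 to 19774 in tumour 06 around a median of 10662. Vtn, which encodes the adhesion protein vitronectin, ranged from 1348 to 2611 CPM around a median of 1994. The median SD of log2 CPM between tumours was 0.40 over the 37 tested members and 0.33 over all 12462 tested genes. Among genes with a mean log2 CPM of at least 6, the median SD was 0.35 for 29 members and 0.29 for all 2678 genes of that level.

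The spread was unevenly divided among the members. In 10 of the 37 the highest tumour lay at least 4-fold above the lowest, as it did for 15.9% of all tested genes. In 13 of the 37 the range stayed under 2-fold, against 45.3% of all genes. The 10 wide-ranging members were C8a, C8b, C4b, Fga, Fgg, Fgb, Hrg, Cpb2, F11 and C6. Without tumours 05 and 06, an alternative chosen after seeing the data, 5 of the 37 remained at 4-fold or more (C8a, C8b, C4b, Hrg and C6), against 12.3% of all genes.

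**Figure D1:**
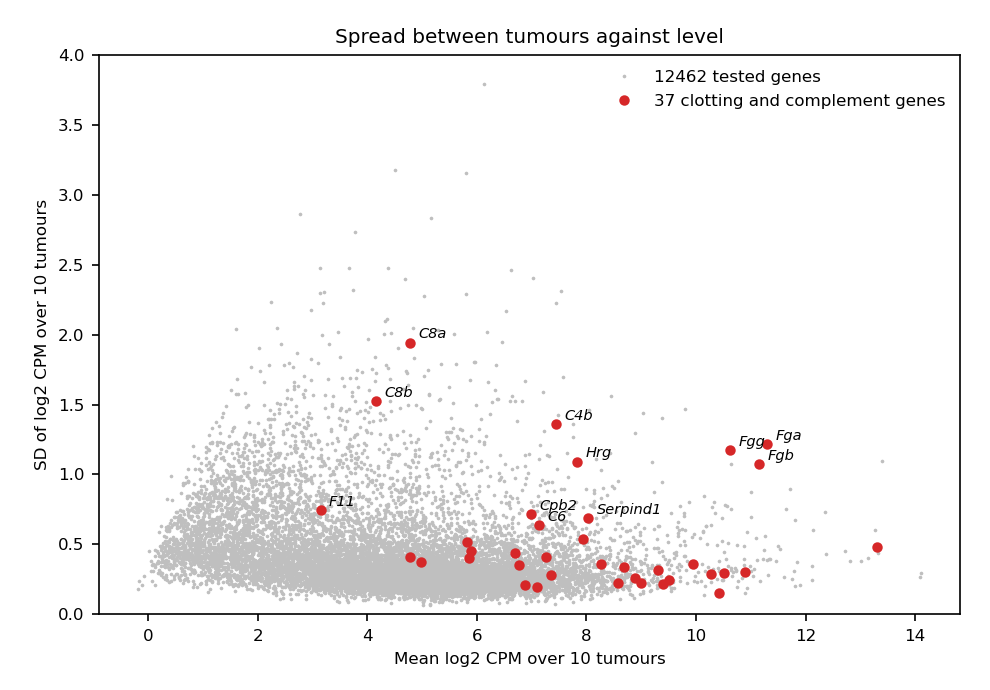
SD of log2 CPM over 10 tumours (vertical axis) against mean log2 CPM (horizontal axis) for the 12462 tested genes (grey) and the 37 tested clotting and complement genes (red, named where the SD is above 0.6). C8a has the widest spread among the tested members (SD 1.94), and the fibrinogen genes combine a high level with an SD of 1.08 to 1.22.

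The fibrinogen genes set tumours 05 and 06 apart from the rest. Fga, Fgb and Fgg encode the alpha, beta and gamma chains of fibrinogen, the soluble precursor of the clot, and lie side by side on chromosome 3. Their levels moved together across tumours, and the sequences upstream of the start are shown for Fga and Fgb, whose windows lie outside any annotated gene. The window of Fgg overlaps an annotated gene and is not printed. Each line gives the 250 bases before the start of transcription from RefSeq (GRCm38.p6), Fga at chr3:83025903-83026152 on the plus strand and Fgb at chr3:83049864-83050113 on the minus strand, both in the direction of transcription. Capitals mark matches to 3 letter patterns, TTCNNNGAA (a STAT form), TTGCNNAA (a C/EBP form) and GTTAAT (an HNF1 form), searched on both strands.
Fga: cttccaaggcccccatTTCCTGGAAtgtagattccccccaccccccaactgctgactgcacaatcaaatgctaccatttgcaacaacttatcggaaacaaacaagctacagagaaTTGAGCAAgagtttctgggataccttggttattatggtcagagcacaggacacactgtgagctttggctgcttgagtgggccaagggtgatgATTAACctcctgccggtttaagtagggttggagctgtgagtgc
Fgb: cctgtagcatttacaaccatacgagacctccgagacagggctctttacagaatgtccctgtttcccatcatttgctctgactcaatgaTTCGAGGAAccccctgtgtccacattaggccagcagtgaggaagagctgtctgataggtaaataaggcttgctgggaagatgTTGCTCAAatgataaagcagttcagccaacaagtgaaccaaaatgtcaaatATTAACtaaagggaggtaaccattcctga

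Both windows held 1 match to each of these patterns, whereas the window of Fgg, which moved most closely with Fga, held none of them. In Fga the STAT form began 234 bases before the start and in Fgb 162 bases before it. Of the 39 genes, 31 had a window in the RefSeq table, and for 30 of the 31 the bases that follow a window were found in a transcript of the same gene. The STAT form occurred in 6 of 31 genes (19.4%), against 8.13% of all 27025 genes with a window. The C/EBP form occurred in 9 of 31 (29.0%) against 10.8%, and the HNF1 form in 8 of 31 (25.8%) against 7.49%. A further pattern, CAAAGTCCA (an HNF4 form), occurred in 0 of 31 and in 0.451% of all genes. A match is a description of letters and does not show that a factor binds there.

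Fga was listed at 17254 CPM in tumour 06 and 7092 in tumour 05, and at 1206 to 2399 CPM in the other 8 tumours. Fgb stood at 12891 and 5728 CPM in these tumours and at 1142 to 2062 in the other 8, and Fgg at 9879 and 4409 against 740 to 1512. For each chain the values of tumours 05 and 06, which share a tag, did not overlap those of the rest. Both tumours lay above the other 8 for 5 of the 37 tested members (the fibrinogen genes, Cpb2 and Masp1) and for 8.95% of all genes, a pair of tumours chosen after seeing the data. Tumour 06 exceeded the median of the other 9 tumours 8.12-fold for Fga, 7.36-fold for Fgb and 7.32-fold for Fgg, and tumour 05 did so by 3.34-fold, 3.27-fold and 3.27-fold. Among the other 8 tumours the ranges were 1.99-fold, 1.81-fold and 2.04-fold. F13b, the carrier subunit of the enzyme that cross-links fibrin, ranged only from 94.4 to 151 CPM around a median of 116.

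**Figure D2:**
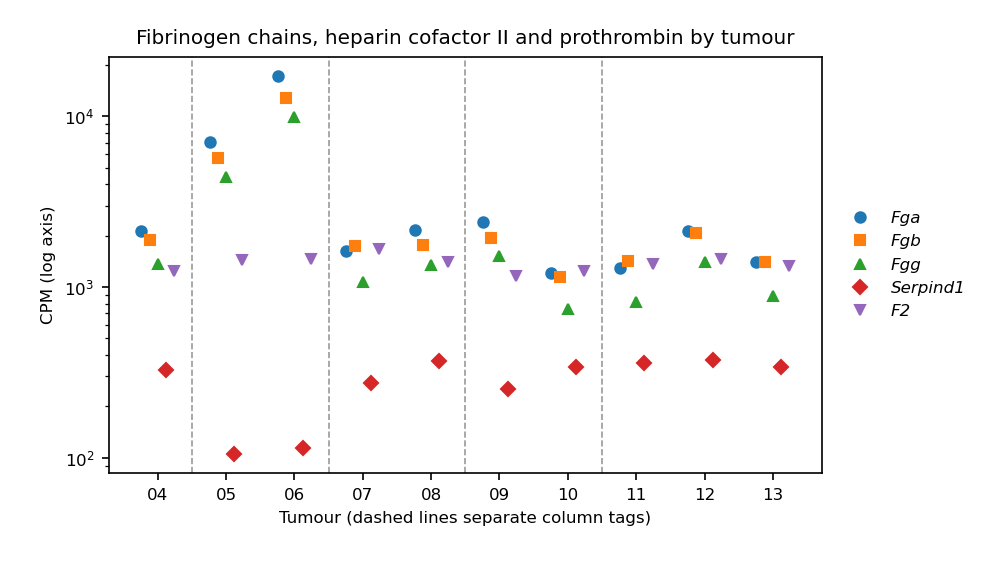
CPM on a log axis in each of the 10 tumours for the fibrinogen genes Fga, Fgb and Fgg, for Serpind1 and for F2, with dashed lines between column tags. Fga, Fgb and Fgg peak in tumours 05 and 06, where Serpind1 lies at its lowest values (105 and 115 CPM), and F2 stays between 1163 and 1661 CPM.

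The inhibitors of clotting differed from one another. Serpind1, which encodes heparin cofactor II, an inhibitor of thrombin, stood at 105 CPM in tumour 05 and 115 in tumour 06. In the other 8 tumours it ranged from 251 to 373 CPM, so the values did not overlap. It was the only 1 of the 37 tested members with both tumours below the other 8, a smaller share than the 7.25% of all genes. This pair of tumours was chosen after seeing the data. Relative to the median of the other 9 it was 3.23-fold lower in tumour 05 and 2.96-fold lower in tumour 06. Serpinc1, which encodes antithrombin, the main inhibitor of thrombin and factor Xa, was lowest in tumour 05 at 915 CPM and highest in tumour 12 at 1599, with a median of 1255.

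The vitamin K dependent clotting proteins, grouped with the cofactor F5, were the steadiest of the 8 role groups, with a median range of 1.93-fold over 7 members. F2, which encodes prothrombin, had the smallest spread of all members, from 1163 CPM in tumour 09 to 1661 in tumour 07 around a median of 1385 (SD of log2 CPM 0.15). F9, which encodes the factor missing in haemophilia B, spread most in this group, from 27.7 CPM in tumour 05 to 95.0 in tumour 12 with a median of 57.7. F7, the factor that tissue factor activates, ranged from 32.2 CPM in tumour 09 to 78.7 in tumour 12 around 62.8. F10, whose product makes thrombin, stood at 311 CPM in tumour 13 and at 432 to 587 in the other 9. F5, the cofactor of factor Xa, ranged from 503 to 970 CPM. Proc and Pros1, which encode the anticoagulant protein C and its cofactor protein S, ranged from 284 to 597 CPM (median 418) and from 119 to 225 CPM (median 159).

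In the contact system, which starts clotting on charged surfaces, F11 was the low and variable member. It ranged from 3.91 CPM in tumour 05 to 17.2 in tumour 12, with 16.6 in tumour 06 and a median of 9.23. F12, whose product activates factor XI, stayed between 503 and 822 CPM around a median of 671. Kng1, which encodes high molecular weight kininogen, ranged from 735 to 1577 CPM with a median of 1006 and was highest in tumour 06. Its close paralog Kng2 was listed at 105 to 236 CPM, and reads from shared sequence could be split between the pair.

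The proteins of fibrinolysis held a steady and a variable set. Plg, which encodes plasminogen, ranged from 1117 CPM in tumour 09 to 2111 in tumour 06 around 1460, and Serpinf2, which encodes the plasmin inhibitor, ranged from 407 to 916 CPM around 671 with the same lowest and highest tumours. Cpb2, a carboxypeptidase that slows fibrin breakdown, was listed at 351 CPM in tumour 06 and at 70.8 to 181 in the other 9, with a median of 116. Hrg, a plasma glycoprotein that binds plasminogen and heparin, ranged from 74.4 CPM in tumour 10 and 84.3 in tumour 09 to 722 in tumour 06, with a median of 238. Both were highest in tumour 06, by 3.55-fold for Cpb2 and 3.44-fold for Hrg over the median of the other 9.

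**Figure D3:**
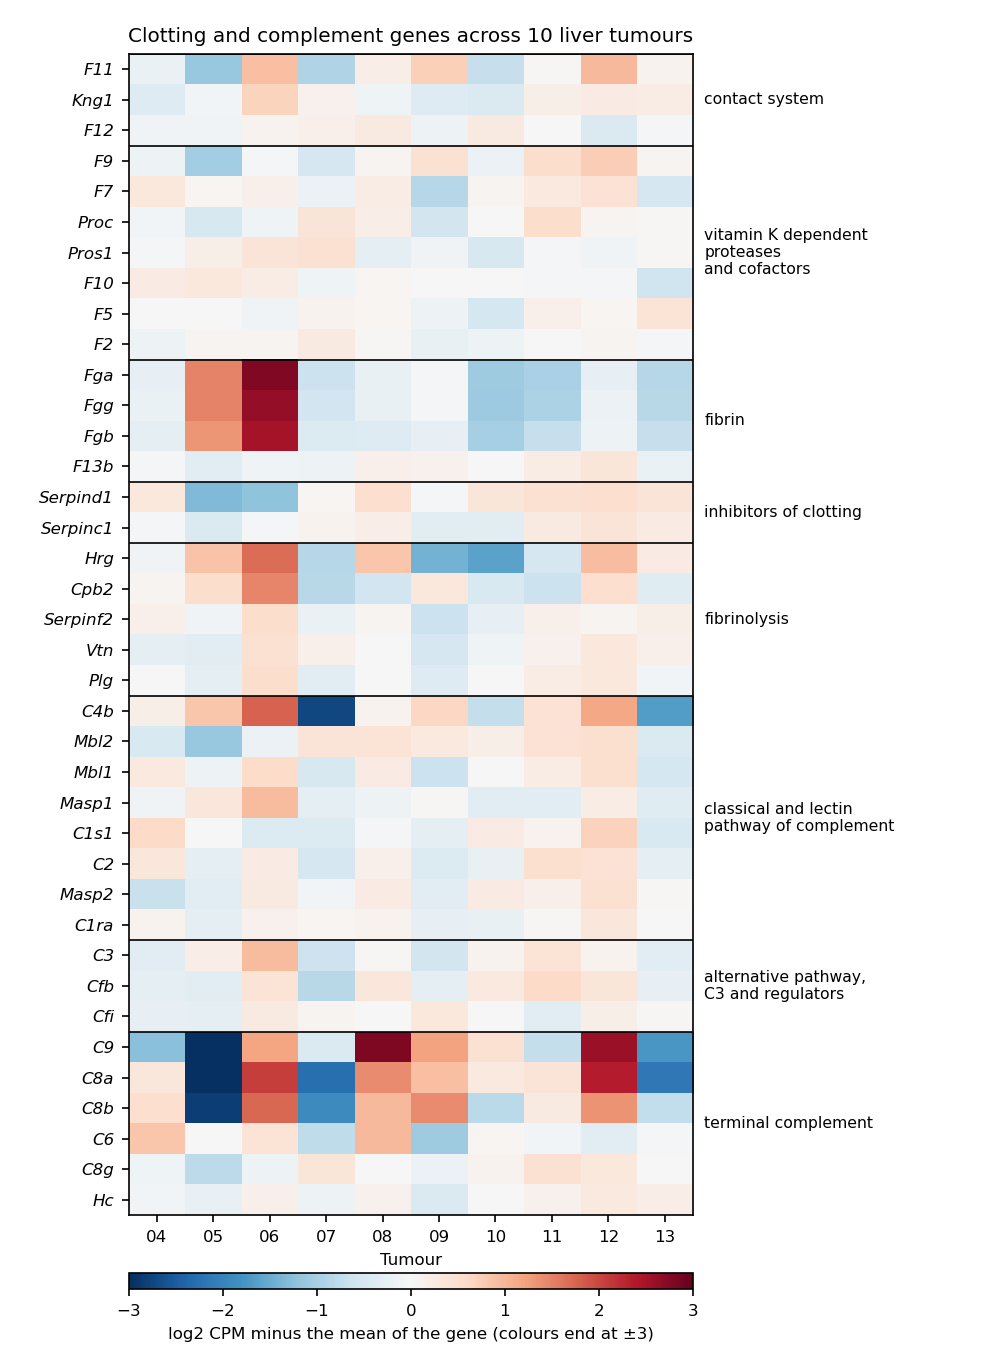
Deviation of log2 CPM from the mean of each gene (colour) for 38 clotting and complement genes (rows, grouped by role) in 10 tumours (columns). Red marks levels above the mean of the gene and blue below it, and deviations beyond 2 in size occur in Fga, Fgb and Fgg of tumour 06 and in C8a, C8b, C9 and C4b.

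Among the starters of the classical and lectin pathways the median SD of log2 CPM was 0.41, and C4b spread most. C4b, whose product is cut by C1s to begin the convertase, ranged from 25.9 CPM in tumour 07 and 54.0 in tumour 13 to 592 in tumour 06 with a median of 217. Its near copy C4a was listed at 0.0928 to 4.39 CPM, so the division of reads between them is uncertain. Masp1, a lectin pathway protease, stood at 53.2 CPM in tumour 06 and 34.6 in tumour 05, above the 21.3 to 31.8 of the other 8. Masp2, which cuts C4 and C2, ranged from 68.4 to 149 CPM with a median of 116.

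Of the C1 subunits and the lectins, C1ra was steady (SD of log2 CPM 0.20) and Mbl2 spread most (0.53). C1ra ranged from 111 to 172 CPM (median 141) and C1s1 from 112 to 245 (median 152), and both have close paralogs, C1rb and C1s2, that reached at most 0.958 and 1.48 CPM. Mbl1, a mannose-binding lectin, ranged from 66.1 CPM in tumour 09 to 153 in tumour 06 around 113. Its relative Mbl2 ranged from 112 CPM in tumour 05 to 340 in tumour 12 around 289. C2 stayed between 22.1 and 44.0 CPM around 30.9, and Cfb, which takes the place of C2 in the alternative pathway, between 33.1 and 87.7 around 61.2. Cfi, the protease that inactivates C3b, ranged from 307 to 476 CPM.

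Terminal complement contained the 3 members with the largest SD of log2 CPM, C9, C8a and C8b. C8a, which encodes the alpha chain of C8, ranged from 2.56 CPM in tumour 05, 5.66 in tumour 07 and 6.16 in tumour 13 to 115 in tumour 06 and 141 in tumour 12, with a median of 35.5. C8b, the beta chain, followed with 2.44 CPM in tumour 05 and 4.64 in tumour 07 up to 58.7 in tumour 06, and a median of 23.4. The low values rested on few reads, since tumour 05 held 40 counts of C8a and 38 of C8b.

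C8g, the gamma chain, which hepatocytes make from a gene on another chromosome, stayed between 276 and 422 CPM in 9 tumours and was listed at 179 in tumour 05. C9, which forms the wall of the pore, ranged from 0.128 CPM in tumour 05, where it had 2 counts, to 26.3 in tumour 08, with 22.9 in tumour 12 and a median of 3.89. C6, which binds C5b, was highest in tumour 08 at 276 CPM and lowest in tumour 09 at 66.9 around 139. Hc, which encodes C5, stayed between 380 and 626 CPM around 537. Tumour 05 also had the lowest values of Serpind1, F9, F11, F13b, Mbl2, Serpinc1 and C1ra.

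**Figure D4:**
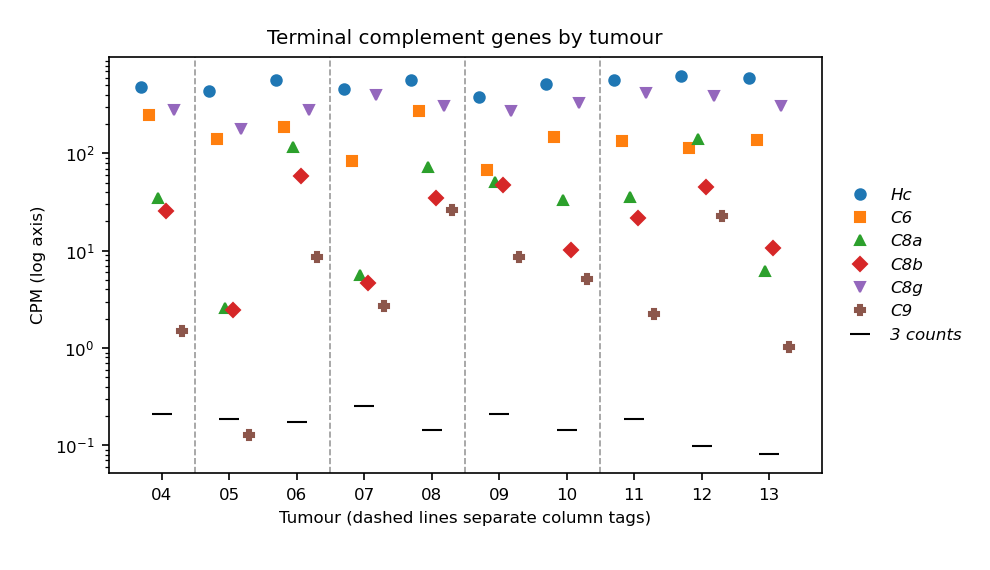
CPM on a log axis in each of the 10 tumours for 6 terminal complement genes, with short black bars for the level of 3 counts (before TMM scaling) and dashed lines between column tags. Hc and C8g stay between 179 and 626 CPM, whereas C8a spans 2.56 to 141 CPM, and C9 falls below the bar in tumour 05.

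The upstream windows of C8b (chr4:104766067-104766316, plus strand) and C9 (chr15:6445096-6445345, plus strand) are shown for comparison with those of fibrinogen, from the same RefSeq build and with the same patterns in capitals. C8b held 1 HNF1 form and C9 1 C/EBP form, and neither window held the STAT form. The window of C8a, not printed because it overlaps an annotated gene, held 1 STAT form and 1 HNF1 form.
C8b: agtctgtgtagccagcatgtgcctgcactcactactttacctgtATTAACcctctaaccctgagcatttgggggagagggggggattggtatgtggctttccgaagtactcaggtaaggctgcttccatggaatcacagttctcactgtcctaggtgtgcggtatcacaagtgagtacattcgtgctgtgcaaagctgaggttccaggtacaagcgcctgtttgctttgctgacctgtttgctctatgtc
C9: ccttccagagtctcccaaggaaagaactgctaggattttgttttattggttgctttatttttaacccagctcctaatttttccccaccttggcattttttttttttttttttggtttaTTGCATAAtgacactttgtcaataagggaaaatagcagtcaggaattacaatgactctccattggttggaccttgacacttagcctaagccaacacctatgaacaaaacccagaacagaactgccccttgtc

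Several tumours of the same tag differed strongly in C8a and C8b. The folds in this paragraph come from log2 CPM with a prior count of 2 and can be smaller than ratios of CPM. C8a was 43.3-fold higher in tumour 06 than in tumour 05, 12.7-fold higher in tumour 08 than in 07 and 22.5-fold higher in tumour 12 than in 13. Its differences were 1.53-fold between tumours 09 and 10, 3.90-fold between 11 and 12 and 5.77-fold between 11 and 13. C8b differed 23.2-fold, 7.43-fold and 4.27-fold in the first 3 pairs, 4.69-fold between tumours 09 and 10, 2.11-fold between 11 and 12 and 2.03-fold between 11 and 13. C4b was 7.25-fold higher in tumour 08 than in 07 and 7.22-fold higher in tumour 12 than in 13.

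Counted over the members, 6 of 37 lay at least 2-fold apart between tumours 05 and 06, all higher in 06, against 7.1% of all genes. Between tumours 07 and 08 the count was 7, all higher in 08 (11.2% of all genes), and between 09 and 10 it was 5 (12.3%). Between tumours 11 and 12 it was 4 (6.77%), between 11 and 13 it was 3 (5.39%) and between 12 and 13 it was 4 (6.23%). The median absolute difference between tumours 05 and 06 was 0.63 on the log2 scale for members and 0.29 for all genes. Between tumours 12 and 13 it was 0.54 and 0.26, whereas between 07 and 08 it was 0.34 and 0.33. For tumours 09 and 10 the values were 0.43 and 0.35, and for 11 and 13 they were 0.29 and 0.28. Between 11 and 12 it was smaller for members (0.23) than for all genes (0.31).

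Tumours 06 and 12 held the highest values of many members, and tumours 05, 09 and 10 many of the lowest. Tumour 06 had the highest level of 14 of the 37 members, as it did for 7.48% of all genes, and tumour 12 of a further 12 (11.5% of all genes). The lowest level was in tumour 05 for 10 members (15.6% of all genes), in tumour 09 for 9 members (12.7%) and in tumour 10 for 7 (7.13%). Tumour 07 was the lowest for 5 members, no larger a share than over all genes (15.4%). Neither tumour 06 nor tumour 08 was the lowest for any of the 37. They were so for 7.32% and 5.01% of all genes, shares under which only a few of 37 would fall. The summed level of the 10 hepatocyte markers was highest in tumour 12 (52934 CPM) and lowest in tumours 10 (37853) and 05 (38478). It was 48746 CPM in tumour 06 and 44070 in tumour 09, around a median of 45422. The summed level of 8 macrophage markers, of which 4 passed the filter and Marco was at 0 in at least 1 tumour, was highest in tumour 06 (274 CPM, against 88.7 to 230 in the others). That of 6 neutrophil markers, none of which passed the filter and of which Ly6g, Mpo and Cxcr2 reached 0, was also highest there (27.9 CPM, against 1.0 to 10.3). Tumour 07 had the highest summed level of 5 red cell markers, of which 4 passed the filter and none reached 0 (6210 CPM, against 101 to 1783). The part of these cells in the results was not tested.

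To relate the members to programs of the tumours, each gene was fitted against 4 scores made from other gene lists. A score is the mean of the scaled log2 CPM of its list, and a slope is the change in log2 CPM per SD of the score, tested over all 12462 genes with edgeR's quasi-likelihood test and Benjamini-Hochberg adjustment. The acute phase list held 18 genes such as serum amyloid A, haptoglobin and orosomucoid, none of them a member. Of these, 16 were highest in tumour 06, and in 8 of the 16 tumour 05 came next.

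Fibrinogen and Masp1 rose with the acute phase score. Of the 37 members 4 were called higher with it, where 0.128% of all genes were, and 0 were called lower, where 0.00802% were. Of the 16 genes called higher in all, 8 belonged to the acute phase list that makes the score and 4 were these members. Fga had a slope of 1.14 ± 0.16 (SE, n = 10), Fgg of 1.10 ± 0.16 and Fgb of 1.00 ± 0.14, each with an adjusted p of 0.00777 (edgeR). For Masp1 the slope was 0.39 ± 0.05 with an adjusted p of 0.0397 (edgeR). The SE given is that of a least squares line through log2 CPM.

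The next member by p-value, Cpb2, had a slope of 0.62 and an adjusted p of 0.0536, and Hrg (0.84), C4b (0.85), Serpind1 (-0.48), C3 (0.32) and Kng1 (0.22) had unadjusted p-values under 0.05 and adjusted p-values of 0.343 to 0.588 (edgeR). At an unadjusted p under 0.05 lay 10 members and 8.17% of all genes. DESeq2 called Cpb2 (adjusted p 0.000327) and Hrg (0.00893) as well, and 0.854% of 11012 genes. The edgeR calls rested on tumour 06. Without it 0 members and 0 of 12493 genes were called, and the slope of Fga was 0.65 with an adjusted p of 0.451 (edgeR). With the tag as a block, 0 members were called and the slope of Fga was 0.72. Masp1 lost its call when any 1 of the 10 tumours was left out (adjusted p 0.0581 to 0.592, edgeR), while its slope stayed at 0.39 to 0.41 in 9 of the 10 and was 0.21 without tumour 06.

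Other genes were read from lists of names, also chosen with earlier results of these data known. Among 16 further clotting and fibrinolysis genes, 14 were tested and 1 rose with the acute phase score, Serpina10 (slope 0.43, adjusted p 0.0216, edgeR), which encodes an inhibitor of factor Xa. Of 18 liver transcription factors and cytokine signalling genes, 17 were tested and 0 were called with the acute phase score by edgeR.

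Genes of periportal hepatocytes gave the second score. C8a had a slope of 1.65 ± 0.33 (SE, n = 10) with an adjusted p of 0.275, and C8b of 1.16 ± 0.33 with an adjusted p of 0.930, in edgeR. F11 (0.54), F9 (0.30) and F13b (0.15) also had unadjusted p-values under 0.05. In edgeR with the filter on low counts no member passed the adjusted threshold, and 0.00802% of all genes did, with 577 genes and 5 members at an unadjusted p under 0.05. The same fit called 0 of the 8 tested genes of its own list, so it cannot tell whether members follow the periportal program. DESeq2 called C8a and C8b, with adjusted p-values of 4.7e-07 and 0.00567, and 0.233% of all genes. With no filter on low counts C9, which had 2 counts in tumour 05, was called with a slope of 1.82 and an adjusted p of 0.0254 (edgeR), as 1 of 4 among 24682 genes.

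In edgeR neither the stroma nor the proliferation score called a member. With the stroma score, made from collagens and other matrix genes, 3.26% of all genes rose and 0.193% fell, and 0 of the 37 members were called. Cfb (slope -0.33), Hc (-0.19) and Masp2 (-0.24) had adjusted p-values of 0.151 to 0.239 (edgeR), and 3 members, and 13.8% of all genes, had an unadjusted p under 0.05. DESeq2 called Hc and 6.03% of all genes. The summed level of the 12 stroma genes ranged from 503 CPM in tumour 12 to 3785 in tumour 09. With the proliferation score 0% of all genes and 0 members were called by edgeR, although 799 genes had an unadjusted p under 0.05, none of them a member, and DESeq2 called 57 genes and 0 members. In edgeR the stroma score called 12 of the 12 genes of its own list, and the proliferation score called 0 of 12. The proliferation fit therefore cannot tell whether members follow that program. The smallest adjusted p among members was 0.811, for F11 (slope 0.43, edgeR).

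Between the 5 tags 0 members and 0.425% of all genes were called with edgeR's F test. Fgb and Fga came nearest with an adjusted p of 0.0520 each, followed by Fgg (0.0561) and Serpind1 (0.0573). Hrg had an adjusted p of 0.223. At an unadjusted p under 0.05 lay 6 members and 14.9% of all genes. DESeq2 called 6 members (Fga, Fgb, Fgg, Serpind1, Cpb2 and Hrg) and 10.1% of all genes, and edgeR without a filter called the same 6 and 4.81% of all genes. Without tumour 04, 09 or 10 edgeR called 4, namely Fga, Fgb, Fgg and Serpind1, beside 135, 120 and 167 genes in all.

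Subunits of one protein were compared as pairs across the 10 tumours. Pearson's r of log2 CPM was computed for 15 pairs of genes whose products act together, with two-sided permutation tests of 100000 resamples and adjustment over the 15 pairs. The fibrinogen chains were the closest, with r = 0.999 for Fga and Fgg, 0.994 for Fgb and Fgg and 0.993 for Fga and Fgb (each adjusted p 1e-04), and Spearman's rho of 0.952, 0.976 and 0.903 (adjusted permutation p of 0.000975, 0.0003 and 0.00375). Without tumours 05 and 06, the farthest from the median, r was still 0.996, 0.947 and 0.917 (exact permutation p, 8 tumours, 0.000149, 0.000496 and 0.000918). C8a and C8b had r = 0.932 (permutation p 8e-05, adjusted 0.0003) and rho = 0.915, and r = 0.821 without tumours 05 and 07 (exact p 0.00558, 8 tumours).

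The gamma chain did not follow them, with r = 0.359 for C8a and C8g (permutation p 0.313) and 0.285 for C8b and C8g (permutation p 0.431). The pairs C2 with Cfb (r = 0.746, rho = 0.806, adjusted permutation p 0.0337 and 0.0223) and Plg with Serpinf2 (r = 0.813, rho = 0.697, adjusted permutation p 0.0114 and 0.0766) passed by r. With the 2 tumours most distant from the median level of the first gene left out, r fell to 0.615 for C2 and Cfb and to 0.562 for Plg and Serpinf2 (exact p 0.107 and 0.148, 8 tumours), so neither passed the test over those 8. The other pairs, such as Mbl1 with Mbl2 (r = 0.110), Masp1 with Masp2 (0.0979), C1ra with C1s1 (0.292), Proc with Pros1 (0.00240), Kng1 with F11 (0.394), Mbl2 with Masp2 (0.538) and C6 with C9 (0.0460), had permutation p-values of 0.108 to 0.995.

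Within tags, on deviations from the mean of each tag, r was 0.996 for Fga and Fgg, 0.932 for C8a and C8b, 0.942 for C2 and Cfb and 0.857 for Plg and Serpinf2. Only 48 permutations exist within tags, so the smallest exact p is 0.0208, and 0 of 15 pairs passed after adjustment.

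Across all 666 pairs of tested members the median r was 0.264, and 28 pairs (4.20%) reached 0.8, against a median of -0.002 and 0.842% of all 77644491 pairs of tested genes. Masp1 was closest to the fibrinogen genes (r = 0.957 with Fgg, 0.954 with Fga), and Cpb2 to Masp1 (0.945). Without tumours 05 and 06, left out after seeing the data, these values were 0.839, 0.822 and 0.865. Serpind1 had negative coefficients with Fga (-0.901), Fgb (-0.906) and Fgg (-0.901), which were -0.258, -0.239 and -0.257 without tumours 05 and 06. F11 was closest to C8b (r = 0.926), although the genes lie on different chromosomes, and C9 to C8a (0.858). These coefficients are descriptions, since some tumours may share an animal and every pair was read from the same 10 libraries.

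**Figure D5:**
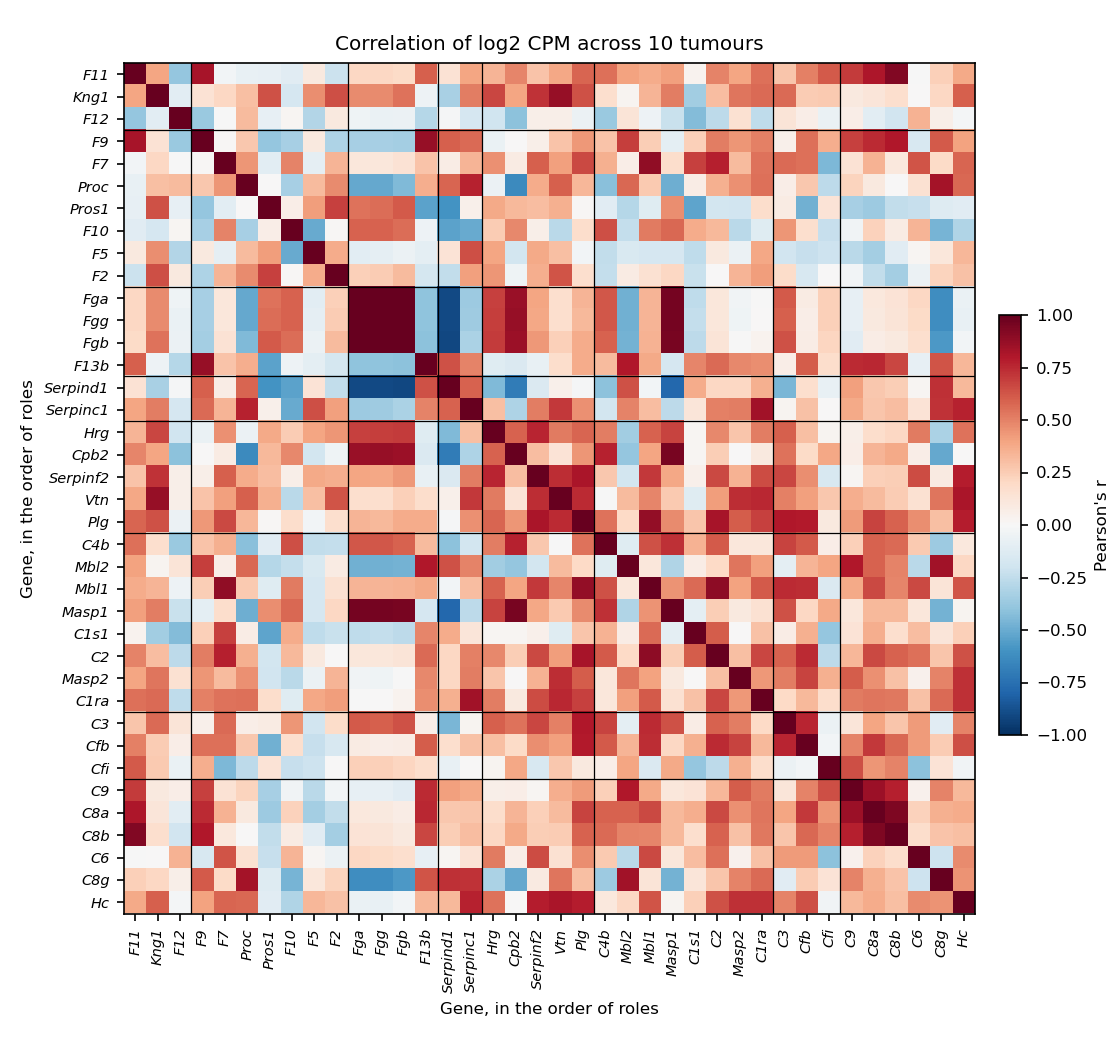
Pearson's r of log2 CPM across 10 tumours for each pair of 38 genes (colour), with genes grouped by role. The fibrinogen genes form a block near 1 with negative values towards Serpind1 (-0.906 to -0.901, or -0.258 to -0.239 without tumours 05 and 06). C9, C8a and C8b form a looser block, with r of 0.932 for C8a and C8b, 0.858 for C8a and C9 and 0.779 for C8b and C9.

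Neighbouring members did not all move together. Within 50000 bases of each other lie Fgg, Fga and Fgb on chromosome 3, C8b and C8a on chromosome 4 with 11130 bases between them (r = 0.932), and Cfb and C2 on chromosome 17 with only 87 bases between them (r = 0.746). In contrast C1ra and C1s1 on chromosome 6, 6903 bases apart, had r = 0.292, and F7 and F10 on chromosome 8, 1498 bases apart, had r = 0.496. Whether counting used the strand was not given in the sources used here, so for genes as close as Cfb and C2, whose annotated ends do not overlap, reads that run past an end could be assigned to the neighbour, which was not tested.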

How the data were processed

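Bulk RNA of snap-frozen whole tumours was isolated with Trizol. Libraries of polyadenylated RNA were made from it with a stranded mRNA kit and sequenced as paired-end reads. The authors deposited a table of unnormalised read counts per gene. The submitters' processing notes name TopHat2, HTSeq and the build GRCm38, and the counting options are not given in the sources used here. Summary lines, which count reads assigned to no gene, made up 51.7 to 66.0% of each column and were left out, multiply aligned reads being the largest part (45.4 to 57.9%). Of 19 columns, 10 were matched to a tumour by a number found in 1 title only, and 9 were not used.

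Symbols were taken by stable identifier from GENCODE M39 (87.3% of identifiers matched). Positions and upstream windows came from RefSeq on GRCm38.p6. Tf was matched as Trf. The filter was edgeR's filterByExpr with the tumours as 1 group, which left 12462 genes, and TMM factors ranged from 0.927 to 1.12. Slopes and tag differences were tested with edgeR 4.0.16 (glmQLFit and glmQLFTest, limma 3.58.1, R 4.3.3), adjusted over all tested genes and called at an adjusted p under 0.05. DESeq2 1.42.0 was an alternative. Pairs were tested by permutation in Python 3.11.15 (numpy 2.4.6, pandas 2.3.3, scipy 1.17.1), and matplotlib 3.10.9 drew the plots. The scripts were tested on simulated data.

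The members, lists, pairs and tests were chosen with earlier results of these data known. Members were described in full where they had 1 of the 10 largest or 5 smallest SDs of log2 CPM, 1 of the 5 highest medians per kb, 1 of the 5 smallest adjusted p-values of a fit, a partner in a pair or an outlying tumour, and otherwise by range. Alternatives changed the scaling, filter, tool, score, prior count, tag block and tumours used. The tag was read from the column name as a possible shared animal, and p-values measure only the spread between these tumours. The fits of a list of further complement genes are not reported here.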

Additional observations from a re-analysis of the deposited data

Results flagged for a closer look

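In 3 of 38 members the highest or lowest tumour stood apart from the other 9 by a gap above the critical share of the whole range of log2 CPM (0.466 for 10 tumours), where chance would give about 1.9. F10 was lowest in tumour 13, at 311 CPM against 432 in the next tumour, with a gap of 0.518 of the range. C8g was lowest in tumour 05, at 179 CPM against 276, with a gap of 0.504. Masp1 was highest in tumour 06, at 53.2 CPM against 34.6, with a gap of 0.469. The fibrinogen genes did not reach this share, because tumours 05 and 06 were both high.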

How the results depend on the processing

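No called member or pair changed sign. Among values that were not called after adjustment, the r of Kng1 with the acute phase score went from 0.638 to -0.218 without tumours 06 and 10, that of Serpind1 from -0.718 to 0.163 within tags, and those of C8a and C8b with C8g from 0.359 and 0.285 to -0.227 and -0.457 without tumour 05. The 4 members called with the acute phase score became 0 without the 2 tumours farthest from the median score (06 and 10), 0 with the tag as a block, and 0 to 3 when each tumour was left out in turn, where 0 was reached without tumour 06. DESeq2 called 6 (94 of 11012 genes) and no filter left 3 (11 of 24682). Over those alternatives the slope of Fga ranged from 0.63 to 1.21 and its adjusted p from 7.71e-10 to 0.651. The 0 members called with the periportal score became 1 with no filter (of 4 among 24682 genes), 2 in DESeq2 and 0 to 1 on leaving out each tumour (C9, the only 1 of 12634 genes, without tumour 05). With the stroma score DESeq2 called 1, and edgeR called 0 with each tumour left out in turn. Between tags the 0 became 6 with no filter, 6 in DESeq2 and 0 to 4 on leaving out each tumour. Of 12462 genes tested by edgeR, the tags called 53, against 1207 of 11974 in DESeq2, and the periportal score called 1 against 29. The cause of these differences was not tested. Partner pairs called went from 6 to 0 on deviations from tag means, where 48 permutations limit the test, and to 4 to 6 on leaving out each tumour. C2 with Cfb lost its call in 8 of 10 of these, and Plg with Serpinf2 without tumour 06 (r = 0.701, adjusted exact p 0.0824). Members with a 4-fold range went from 10 to 5 without tumours 05 and 06, and stayed at 9 to 11 under the others. No paired analysis was possible because replicate numbers only name the 10 tumours of 1 group, and the tag block above is the nearest to it. Depth limits C9 and the low values of C8a, C8b and F11 most.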

Other observations

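Of 17 tested genes of cytokine signalling and liver transcription factors, only Osmr was called, with the stroma score. Tumour 05 was the highest for 5 of the 17 (18.3% of all genes) and tumour 06 for 2 (7.48%), and the median slope of the list on the acute phase score was 0.08. Stat3, the factor that carries the interleukin-6 signal, stood at 376 CPM in tumour 05 and 368 in tumour 06, and at 107 to 210 in the other 8. Cebpb, a C/EBP factor of the acute phase, stood at 500 and 272 CPM in these tumours and at 73.7 to 196 in the others. Both tumours lay above the other 8, as for Stat3 and Cebpb, in 8.95% of all genes. Socs3, a feedback inhibitor of STAT3, was highest in tumour 05 at 140 CPM, with 74.0 in tumour 06 and 81.5 in tumour 07. Il6ra, the interleukin-6 receptor, was highest in tumour 05 at 52.0 CPM and stood at 26.3 in tumour 06, within the range of the rest (12.5 to 34.4). Hnf4a, a factor that keeps hepatocytes differentiated, was steady at 617 to 901 CPM. The genes named here were chosen from a fixed list after their values were seen.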
